A study of Mus musculus with 10 samples.

Results

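The 10 genes described here encode proteins that bring glucose into the cell and convert it to pyruvate and lactate. They are the glucose transporter genes Slc2a1 and Slc2a3, the hexokinase genes Hk1 and Hk2, the phosphofructokinase gene Pfkl, the aldolase gene Aldoa, the phosphoglycerate kinase gene Pgk1, the lactate dehydrogenase genes Ldha and Ldhb, and Pdk1, the gene of a kinase that limits the entry of pyruvate into mitochondria. They were chosen by symbol. All 10 were found, each on 1 row of every library's table, among 22923 gene symbols. RNA was sequenced from 5 sorted populations of C57bl/6 mice aged 4 weeks. Mature granulocytes, small pre-B cells and large pre-B cells came from bone marrow, and quiescent and cycling CD4+CD8+ thymocytes from the thymus. The tested genotype, called CKO, is labelled Dyrk1a -/-, Mx1-Cre+, and the Control genotype Dyrk1a flox/flox, Mx1-Cre-. Each population and genotype gave 1 library from a pool of 2 mice, 10 libraries in all, with no replication between animals. The Control mice also carry floxed Dyrk1a alleles. Mx1 is an interferon-inducible promoter that is active in many cell types, so a Cre driven by it is not limited to blood cells, and how it was induced is not stated in the labels.

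Glucose enters cells through facilitative transporters, is trapped by hexokinase as glucose 6-phosphate, and is split and oxidised in the later steps of glycolysis. Lactate dehydrogenase regenerates NAD+ from pyruvate, and tetramers rich in the LDHA or the LDHB subunit differ in how readily they form lactate. Dividing lymphocytes are known for high glycolytic flux, and neutrophils rely on glycolysis more than on mitochondrial respiration. In lymphocytes the transcription factors MYC and HIF1A are known activators of many of these genes.

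Levels are given as FPKM, a unit that scales a gene's sequenced fragments to the length of its transcript and to a measure of library size. In bulk RNA, fewer cells of a type and less RNA per cell cannot be told apart. The 7 thymocyte markers summed to 1491 to 2714 FPKM in the thymocyte libraries. In small pre-B cells Rag1, which pre-B cells express themselves, made up nearly all of that sum. There Cd3e, Cd8a, Cd8b1, Ptcra and Themis were at 0 to 0.154 FPKM, and Cd4 was at 1.71 FPKM in CKO and 0.214 FPKM in Control. The 7 pre-B markers summed to 1867 to 4886 FPKM in the pre-B libraries and to at most 25.3 FPKM elsewhere. Granulocyte markers were abundant in granulocytes, although S100a9 is listed at 0 in both granulocyte libraries and S100a8 and Ngp at 0 in the Control one, where an exact 0 may be a failed estimate. The 9 matched granulocyte markers also summed to 454 FPKM in CKO and 602 FPKM in Control small pre-B cells, and to 499.8 FPKM in CKO and 1006 FPKM in Control large pre-B cells. The 7 proliferation markers summed to 179 FPKM in CKO and 8.52 FPKM in Control quiescent thymocytes, against 1033 FPKM in CKO and 980.3 FPKM in Control cycling thymocytes. In pre-B cells that sum was 442 FPKM in CKO and 203 FPKM in Control small cells, against 1434 FPKM in CKO and 1341 FPKM in Control large cells. In granulocytes it was 523 FPKM in CKO and 488 FPKM in Control. Dyrk1a itself was not lower in any CKO library, at 34.4 to 44.7 FPKM in CKO against 31.2 to 37.4 FPKM in Control, and the labels do not say which exons are deleted. A gene-level value can include transcript from outside the deleted part, so it does not check the genotype labels.

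Promoter sequences are shown for 4 of the genes, because Ldha, Pgk1 and Hk2 were all lower in small than in large pre-B cells and Ldhb followed another pattern. Pfkl and Hk1 were called lower there too and are not shown. The sequences are RefSeq windows on GRCm38.p6, from 250 bases before to 50 bases after a gene's start, written 5′ to 3′ on the gene's strand. Capitals mark ACGTG or its complement CACGT, a form of the core of the hypoxia response element, and a CACGTG E-box is capitalised whole. The other form of that core, GCGTG, was not searched and is not marked. The windows are chr7:46845554-46845853 (plus strand) for Ldha, chrX:106186850-106187149 (plus strand) for Pgk1, chr6:82774405-82774704 (minus strand) for Hk2 and chr6:142507908-142508207 (minus strand) for Ldhb.
Ldha: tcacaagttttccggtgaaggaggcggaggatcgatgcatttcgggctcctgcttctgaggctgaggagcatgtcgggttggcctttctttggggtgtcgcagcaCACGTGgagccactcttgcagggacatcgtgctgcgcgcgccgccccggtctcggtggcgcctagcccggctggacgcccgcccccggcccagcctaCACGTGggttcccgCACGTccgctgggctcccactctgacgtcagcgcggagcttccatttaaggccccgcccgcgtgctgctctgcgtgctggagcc
Pgk1: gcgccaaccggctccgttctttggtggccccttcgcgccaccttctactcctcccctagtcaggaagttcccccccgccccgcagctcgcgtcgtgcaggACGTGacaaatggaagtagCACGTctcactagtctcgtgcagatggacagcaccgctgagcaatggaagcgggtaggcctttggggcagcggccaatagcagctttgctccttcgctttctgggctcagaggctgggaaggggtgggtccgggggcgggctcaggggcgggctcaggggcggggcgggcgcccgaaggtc
Hk2: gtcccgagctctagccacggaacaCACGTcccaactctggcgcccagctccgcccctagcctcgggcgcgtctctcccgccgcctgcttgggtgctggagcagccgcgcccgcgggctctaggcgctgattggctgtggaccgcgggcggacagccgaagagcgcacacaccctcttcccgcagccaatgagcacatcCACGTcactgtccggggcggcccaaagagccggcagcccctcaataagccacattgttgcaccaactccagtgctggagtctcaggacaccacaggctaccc
Ldhb: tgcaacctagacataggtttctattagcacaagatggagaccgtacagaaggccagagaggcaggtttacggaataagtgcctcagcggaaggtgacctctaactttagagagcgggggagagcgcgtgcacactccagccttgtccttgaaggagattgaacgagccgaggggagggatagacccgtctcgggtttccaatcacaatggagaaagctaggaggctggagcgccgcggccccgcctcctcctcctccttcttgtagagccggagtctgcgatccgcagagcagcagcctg
Of the 10 genes, 9 had at least 1 window in the RefSeq table, 14 windows in all, and Slc2a3 had none. ACGTG, searched on both strands, lay in 7 of the 14 windows and in 6 of the 9 genes, against 19.6% of all 32851 windows in the table. Windows 2 and 3 of Aldoa overlap and hold the same ACGTG match, which is counted in both, and the GC box counts below share that overlap. CACGTG, the MYC E-box, contains ACGTG on both strands and so was counted under both motifs. It lay in 1 window, that of Ldha shown above, against 7.15% of all windows. GGGCGG, the GC box, lay in 8 windows of 7 genes, against 35.7% of all windows. The Ldhb window held none of these 3 motifs, but its letters include GCGTG, which was not counted in any window. Among windows not shown of genes that were lower in small pre-B cells, that of Pfkl held 0 ACGTG matches. Window 1 of Hk1 held 0 and window 2 held 2, and window 2 of Ldha held 0. A match describes letters in a window and does not show that a factor binds there.

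The transporter genes divided the populations in different ways. Slc2a1 (chr4:119108711-119137983, plus strand, mm10), which encodes the widely expressed transporter GLUT1, stood at 28.0 FPKM in CKO and 39.0 FPKM in Control granulocytes. It was at 35.8 FPKM in CKO and 42.1 FPKM in Control quiescent thymocytes, and at 29.5 FPKM in CKO and 33.9 FPKM in Control cycling thymocytes. In pre-B cells Slc2a1 held 6.52 FPKM in CKO and 6.85 FPKM in Control small cells, and 6.61 FPKM in CKO and 6.58 FPKM in Control large cells. Granulocytes and thymocytes thus overlapped, every one of those 6 libraries lay above all 4 pre-B libraries, and the 4 pre-B libraries were nearly level. Slc2a3 (chr6:122727809-122801640, minus strand), which encodes the high-affinity transporter GLUT3, was at 596 FPKM in CKO and 593 FPKM in Control granulocytes. Its lymphoid levels ran from 2.67 FPKM in Control small pre-B cells to 11.3 FPKM in Control quiescent thymocytes. Of the summed FPKM of Slc2a1 and Slc2a3, Slc2a3 made up 95.5% in CKO and 93.8% in Control granulocytes and 21.1% to 23.1% in the 4 thymocyte libraries. In pre-B cells the Slc2a3 share was 44.5% in CKO and 28.0% in Control small cells, and 48.2% in CKO and 44.1% in Control large cells. Slc2a3 is abundant in granulocytes, and the pre-B libraries held the granulocyte marker sums given above, with 0 of the 9 markers higher in CKO in either pre-B population. The part of those markers' cells in the pre-B values was not tested.

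**Figure D1:**
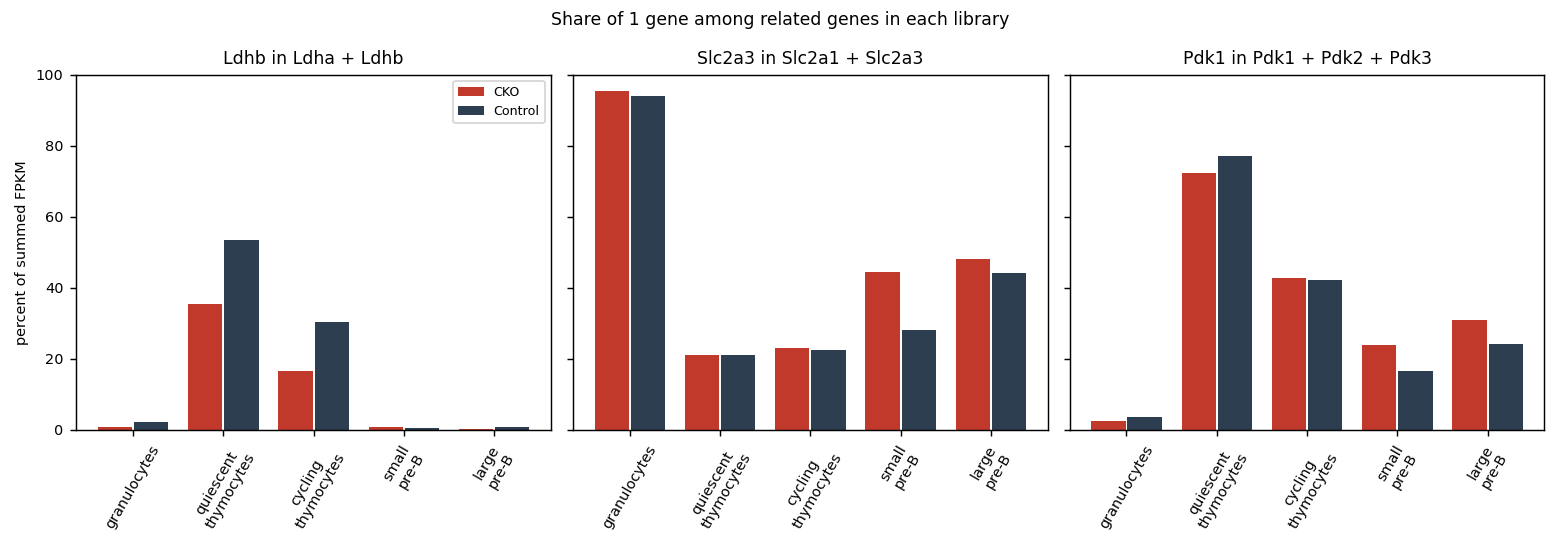
Share of 1 gene in the summed FPKM of related genes, in percent, with CKO (red) left of Control (dark) in each population and 1 library per bar. Ldhb makes up 53.4% of lactate dehydrogenase transcript in Control quiescent thymocytes and under 1% in every pre-B library, Slc2a3 at least 93.8% of the 2 transporters in granulocytes, and Pdk1 most of Pdk1 to Pdk3 in quiescent thymocytes.

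Hexokinases commit glucose to metabolism inside the cell. Hk1 (chr10:62268855-62379908, minus strand) was at 66.8 FPKM in CKO and 82.9 FPKM in Control granulocytes, 38.9 FPKM in CKO and 35.7 FPKM in Control quiescent thymocytes, and 30.3 FPKM in CKO and 27.0 FPKM in Control cycling thymocytes. It was at 11.7 FPKM in CKO and 9.42 FPKM in Control small pre-B cells and at 15.1 FPKM in CKO and 12.3 FPKM in Control large pre-B cells. Ordered by their means, no neighbouring populations overlapped. Hk2 (chr6:82725025-82774454, minus strand), the inducible isoform, had 49.9 FPKM in CKO and 54.2 FPKM in Control granulocytes and 5.74 to 8.59 FPKM in thymocytes, where the quiescent and cycling libraries overlapped. Hk2 was lowest in small pre-B cells, at 1.17 FPKM in CKO and 1.33 FPKM in Control, with 2.79 FPKM in CKO and 3.22 FPKM in Control large pre-B cells. Hk1 led among Hk1, Hk2 and Hk3 in the 8 lymphoid libraries, with 50.3% to 87.0% of their summed FPKM. In granulocytes Hk3, the hexokinase typical of myeloid cells, led with 80.4% in CKO and 79.3% in Control. Hk3 was also at 4.25 FPKM in CKO and 8.91 FPKM in Control large pre-B cells, where the primary granule genes Mpo (159 FPKM in CKO and 365 FPKM in Control) and Elane (115 FPKM in CKO and 251 FPKM in Control) were high too. In small pre-B cells Hk3 was at 0.620 FPKM in CKO and 0.752 FPKM in Control.

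Pfkl (chr10:77986947-78010083, minus strand), the liver-type subunit of phosphofructokinase, a main control point of glycolysis, ranged from 7.93 to 23.9 FPKM over all libraries. Of the summed FPKM of Pfkl, Pfkm and Pfkp, Pfkp led in thymocytes (47.2% to 59.9%) and granulocytes (54.4% in CKO and 57.5% in Control). Pfkl led in large pre-B cells (47.7% in CKO and 48.7% in Control). In small pre-B cells Pfkl made up 41.5% in CKO and 45.6% in Control, and Pfkp 43.4% in CKO and 44.9% in Control. Pfkl was at 17.6 FPKM in CKO and 16.8 FPKM in Control granulocytes and at 17.3 to 23.9 FPKM in the thymocyte libraries. Small pre-B cells were lowest, with 7.93 FPKM in CKO and 9.98 FPKM in Control, against 14.5 FPKM in CKO and 15.4 FPKM in Control large pre-B cells. Aldoa, the aldolase that splits fructose 1,6-bisphosphate, is annotated as 2 neighbouring genes of that name (chr7:126795234-126800751 and chr7:126800790-126809108, minus strand), and the tables give it on 1 row. Aldoa was at 1253 FPKM in CKO and 1255 FPKM in Control granulocytes. All 8 lymphoid libraries lay far below, between 47.8 FPKM (small pre-B cells, CKO) and 97.1 FPKM (large pre-B cells, Control), and the 4 lymphoid populations overlapped in sequence.

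Pgk1 (chrX:106187100-106203699, plus strand), which makes the first ATP of glycolysis, was at 549 FPKM in CKO and 683 FPKM in Control granulocytes. Among lymphoid cells it was lowest in quiescent thymocytes and small pre-B cells. Pgk1 held 61.9 FPKM in CKO and 64.6 FPKM in Control quiescent thymocytes, against 108 FPKM in CKO and 148 FPKM in Control cycling thymocytes. In pre-B cells it held 66.8 FPKM in CKO and 62.0 FPKM in Control small cells, against 148 FPKM in CKO and 146 FPKM in Control large cells. Pgk1, Ldha and Gapdh have processed pseudogenes, and the way the authors' counting divided reads among such copies is unknown here, so their values are uncertain to that extent.

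The lactate dehydrogenase genes were distributed differently. Ldha (chr7:46841475-46855627, plus strand), the subunit tied to lactate formation, was at 550.2 FPKM in CKO and 699 FPKM in Control granulocytes, and at 141 FPKM in CKO and 212 FPKM in Control quiescent thymocytes. It was at 188 FPKM in CKO and 275 FPKM in Control cycling thymocytes, 72.6 FPKM in CKO and 66.0 FPKM in Control small pre-B cells, and 251 FPKM in CKO and 256 FPKM in Control large pre-B cells. Small pre-B cells were the lowest of all and did not overlap any other population. Ldhb (chr6:142490249-142507957, minus strand), the subunit tied to lactate oxidation, was at 4.06 FPKM in CKO and 15.2 FPKM in Control granulocytes. Thymocytes held 77.0 FPKM in CKO and 243 FPKM in Control quiescent cells and 37.7 FPKM in CKO and 120.3 FPKM in Control cycling cells. In pre-B cells Ldhb was at 0.550 FPKM in CKO and 0.401 FPKM in Control small cells and at 0.313 FPKM in CKO and 2.36 FPKM in Control large cells. Ldhb was thus high in all thymocyte libraries and near 0 in pre-B cells, and its CKO and Control values in thymocytes and granulocytes lay far apart.

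Pdk1 (chr2:71873224-71903858, plus strand), whose product phosphorylates and inactivates pyruvate dehydrogenase, was lowest in granulocytes, at 1.44 FPKM in CKO and 2.31 FPKM in Control, and highest in quiescent thymocytes, at 37.5 FPKM in CKO and 56.5 FPKM in Control. Cycling thymocytes had 12.8 FPKM in CKO and 15.2 FPKM in Control. Pre-B cells had 8.34 FPKM in CKO and 5.15 FPKM in Control small cells and 10.4 FPKM in CKO and 7.72 FPKM in Control large cells, and small and large cells overlapped. Pdk1 made up 72.4% of the summed FPKM of Pdk1, Pdk2 and Pdk3 in CKO and 77.1% in Control quiescent thymocytes. The leading kinase gene was Pdk2 in small pre-B cells (42.4% in CKO and 58.0% in Control) and Pdk3 in granulocytes (96.5% in CKO and 94.9% in Control). Pdk3 also led in cycling thymocytes (55.3% in CKO and 53.0% in Control) and in large pre-B cells (54.8% in CKO and 61.2% in Control).

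**Figure D2:**
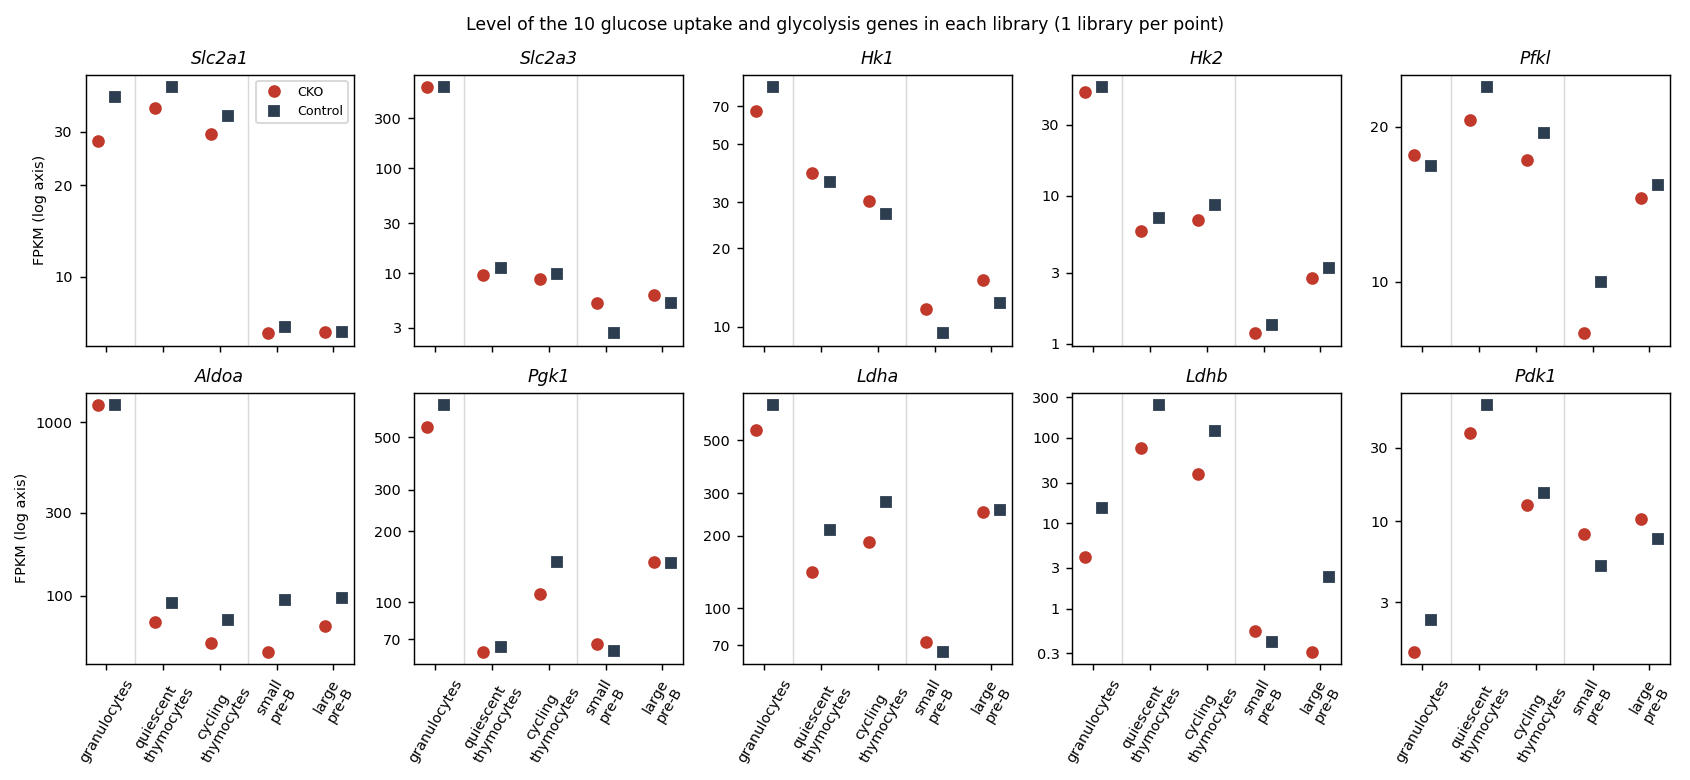
Level of each of the 10 genes in FPKM on a log axis, 1 point per library, with CKO (red circles) left of Control (dark squares) in each population. Granulocytes are highest for 6 genes, including Slc2a3 at 596 FPKM in CKO and 593 FPKM in Control. Aldoa, also among them, is at 1253 FPKM in CKO and 1255 FPKM in Control. By mean, Slc2a1, Pfkl, Ldhb and Pdk1 are highest in quiescent thymocytes, where Slc2a1 and Ldhb overlap the next population. Ldhb is lower in CKO than in Control in 4 of 5 populations.

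Granulocytes were set against the mean of the 4 lymphoid populations on the scale log2(FPKM + 1), which understates changes of low genes. The fit (limma with population and genotype as terms, 10 libraries, 4 residual degrees of freedom, Benjamini-Hochberg over 11715 genes, threshold 0.05) lets the 2 genotypes stand in for replicates. Slc2a3 was higher by 6.25 (SE 0.18, limma adjusted p = 1.81e-07), Aldoa by 4.10 (SE 0.16), Hk2 by 3.44 (SE 0.09), Pgk1 by 2.70 (SE 0.12), Ldha by 1.93 (SE 0.15), Hk1 by 1.85 (SE 0.12) and Slc2a1 by 1.04 (SE 0.10). The largest limma adjusted p of these 7 genes was 6.62e-05. Pdk1 was lower, with a difference of −2.42 (SE 0.24, limma adjusted p = 5.93e-05). The values were 0.16 for Pfkl (limma adjusted p = 0.151) and −0.53 for Ldhb (limma adjusted p = 0.191). Of all genes tested, 80.8% were called, 41.3% higher and 39.5% lower, so that 8 of 10 called is near the background, while the median of the 10 genes was 1.89 and that of all genes −0.01. These directions rest in part on the scale of the deposited values. The granulocyte libraries summed to 1074258 FPKM in CKO and 830006 FPKM in Control, against 360394 to 431868 FPKM in the lymphoid libraries. The CKO sum includes 246142 FPKM of S100a8 and 39818 FPKM of Ngp, both listed at 0 in the Control library. Size factors from the median ratio over 11888 genes were 0.990 to 1.013, so rescaling by them could move the values only a little. With every library scaled to the same sum, an alternative added after seeing the values, the median of all genes moved to −0.93 and the share of called genes that were higher fell to 21.7%, against 51.1% as deposited. This scaling carries the S100a8 and Ngp values of the CKO library. On that scale 6 of the 10 genes were higher and 3 lower. Slc2a1 was then at −0.15 (limma adjusted p = 0.4) and Pfkl at −1.0006 (limma adjusted p = 3.25e-05), whereas Slc2a3 was still higher by 5.03, Aldoa by 2.85 and Hk2 by 2.27. As deposited, the call of Ldhb turned on pre-B cells, at −1.58 without small pre-B cells (limma adjusted p = 1.86e-05) and −1.41 without large ones (limma adjusted p = 0.0146). It was at 0.60 without quiescent thymocytes (limma adjusted p = 0.175), where Pfkl passed at 0.33 (limma adjusted p = 0.0217).

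Around the 10 genes, the other steps of glucose metabolism were read from a list of 72 further genes, of which 61 passed the filter on low values in this fit. As deposited, 38 were higher and 16 lower in granulocytes, and with equal sums 21 of 59 were higher and 29 lower. All 4 tested genes of the hexokinase step were higher on either scale, including Hk3 by 8.03 (480.0 FPKM in CKO and 527 FPKM in Control granulocytes) and the ADP-dependent glucokinase gene Adpgk by 6.53, both as deposited. Of 8 genes of the pentose phosphate pathway, which supplies NADPH, 7 were higher and 1 lower, and with equal sums 5 were higher and 2 lower. The lactate transporter genes moved in opposite directions. Slc16a3, which encodes MCT4, was higher by 6.76, at 256 FPKM in CKO and 334 FPKM in Control granulocytes, whereas Slc16a1, which encodes MCT1, was lower, with a difference of −4.17, at 2.15 FPKM in CKO and 3.16 FPKM in Control. Among genes of pyruvate entry into mitochondria, Pdk1 included, 4 of 12 were higher and 7 lower, and the strongest fall outside Pdk1 was that of the phosphatase gene Pdp2 (−1.92). Bpgm, which diverts a glycolytic intermediate to 2,3-bisphosphoglycerate, was lower too (−2.06). Txnip, which encodes an inhibitor of glucose uptake, was higher (2.48), and Pdk2 (−1.60) and Myc (−1.19) were lower, on either scale. Of the fixed glycolytic genes, Pkm (3.22), Gpi1 (3.58), Eno1 (2.97) and Gapdh (2.14) were higher and kept that direction with equal sums. Tpi1 (0.93), Pfkp (0.35) and Hif1a (0.40) were higher as deposited and below 0 with equal sums (−0.31 for Tpi1, −0.83 for Pfkp and −0.81 for Hif1a).

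**Figure D3:**
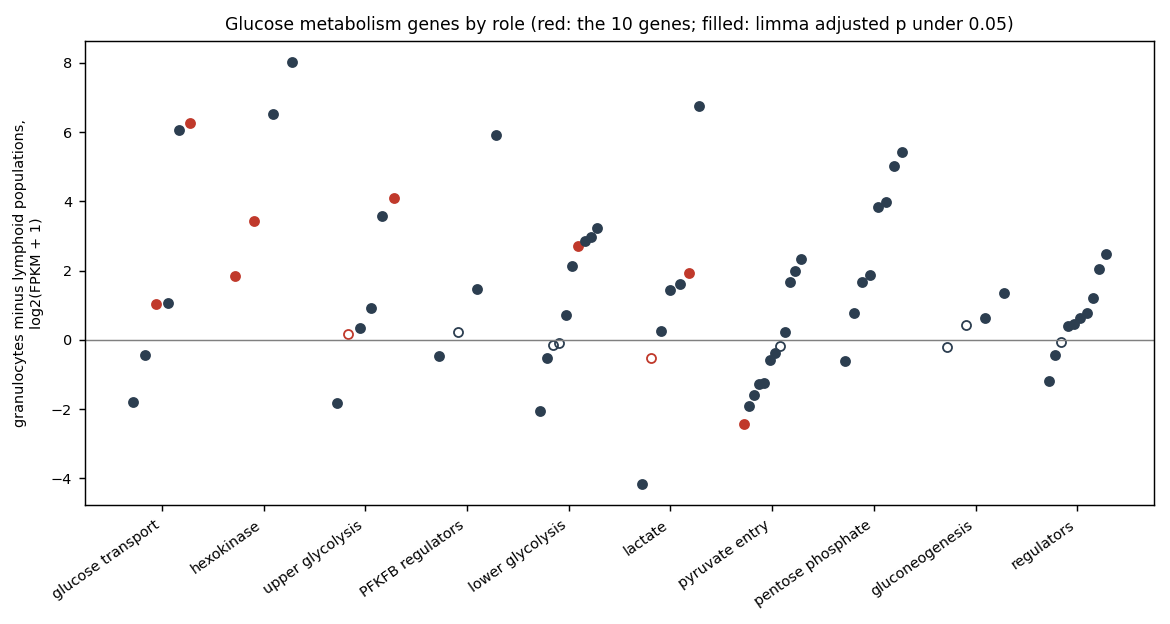
Difference between granulocytes and the mean of the lymphoid populations in log2(FPKM + 1), 1 point per gene that passed the filter, grouped by role. Red points are the 10 genes, dark points the wider list and filled points those with a limma adjusted p under 0.05. The hexokinase and pentose phosphate groups lie mostly above 0 and pyruvate entry mostly below, with Pdk1 at −2.42; values are as deposited, and with equal FPKM sums Slc2a1 (−0.15) and Pfkl (−1.0006) lie below 0.

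Thymocytes were compared with pre-B cells in the same fit. Ldhb differed most, at 5.79 (SE 0.31, limma adjusted p = 8.68e-06), followed by Slc2a1 at 2.24 (SE 0.09), Pdk1 at 1.61 (SE 0.21), Hk2 at 1.42 (SE 0.08), Hk1 at 1.38 (SE 0.11), Slc2a3 at 0.94 (SE 0.16), Pfkl at 0.75 (SE 0.08) and Ldha at 0.58 (SE 0.13). These 8 genes were higher in thymocytes, with limma adjusted p values of at most 0.00689. Aldoa was at −0.06 (limma adjusted p = 0.748) and Pgk1 at −0.12 (limma adjusted p = 0.328). All genes gave 69.7% called, 33.2% higher and 36.5% lower, and a median of −0.05, against a median of 1.16 for the 10 genes. The 8 of 10 called is again near the background for either direction, but no gene of the 10 was called lower. The wider list was evenly divided, with 22 genes higher and 22 lower of 61. Of its 8 pentose phosphate genes, 1 was higher and 7 were lower in thymocytes. Of the fixed genes Pfkp (1.49), Gapdh (0.63), Hif1a (0.59) and Pkm (0.44) were higher, and Pdk2 (−1.76) and Myc (−1.23) lower. The largest rises in the wider list were those of Egln3, a prolyl hydroxylase of the hypoxia response (3.49), Bpgm (2.74) and the phosphatase gene Pdp1 (1.71), and the largest falls those of the mitochondrial PEP carboxykinase gene Pck2 (−3.86), the lactonase gene Pgls of the pentose phosphate pathway (−2.57) and the glucose 6-phosphatase gene G6pc3 (−2.12). The value of Ldha depended on small pre-B cells. Without that pair of libraries Ldha was at −0.35 (limma adjusted p = 0.0563), and without cycling thymocytes at 0.38 (limma adjusted p = 0.0734). Pgk1 was at 0.47 without large pre-B cells (limma adjusted p = 0.0253) and at −0.62 without cycling thymocytes (limma adjusted p = 0.00315).

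Quiescent thymocytes differed from cycling thymocytes in 4 of the 10 genes, in both directions. The 8 lymphoid libraries were fitted together, blocked by lineage with genotype, with 1 state effect for thymocytes and 1 for pre-B cells (limma, 2 residual degrees of freedom, 11126 genes). Pdk1 rose by 1.66 (SE 0.14, limma adjusted p = 0.00617), with differences of 1.48 in CKO and 1.83 in Control. Hk1 rose by 0.37 (SE 0.10, limma adjusted p = 0.0322). Pgk1 fell, with a difference of −0.99 (SE 0.12, limma adjusted p = 0.00688), and so did Ldha, at −0.39 (SE 0.10, limma adjusted p = 0.0243). Ldhb was higher by 1.01 in CKO and in Control alike, but with a wide error (SE 0.34, limma adjusted p = 0.0592). This error is shared by both lineages, and the pre-B differences of Ldhb were 0.24 in CKO and −1.26 in Control. Slc2a1 (0.29), Aldoa (0.36) and Pfkl (0.27) lay above 0 in both genotypes and Hk2 (−0.24) below, none past the threshold (limma adjusted p of 0.0715 to 0.153), and Slc2a3 was at 0.14 (limma adjusted p = 0.523). Over all genes 44.9% were called, 25.2% higher and 19.7% lower, and the 4 of 10 here is near that background. With equal sums Slc2a1 and Aldoa also passed (limma adjusted p of 0.0499 and 0.0392). Without the Control pair of thymocyte libraries none of the 10 passed in limma (3 at an unadjusted p under 0.05), and the limma adjusted p of Pdk1 was 0.0562. Without the CKO pair, whose quiescent library holds the 179 FPKM of proliferation markers, 2 of the 4 passed, Pdk1 and Pgk1. Hk1 and Ldha missed the threshold when any 1 of the 4 pairs was left out, with limma adjusted p values of 0.0546 to 0.23.

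Small pre-B cells, set against large pre-B cells in the same fit, were lower in 5 of the 10 genes and higher in none. Ldha fell most, with a difference of −1.86 (SE 0.10, limma adjusted p = 0.00178), at −1.78 in CKO and −1.94 in Control. Pgk1 was at −1.18 (SE 0.12, limma adjusted p = 0.00386), Hk2 at −0.83 (SE 0.12, limma adjusted p = 0.00604), Pfkl at −0.69 (SE 0.11, limma adjusted p = 0.00839) and Hk1 at −0.34 (SE 0.10, limma adjusted p = 0.0387). The differences of Slc2a3 (−0.48), Pdk1 (−0.40), Ldhb (−0.51) and Aldoa (−0.27) had limma adjusted p values of 0.0604 to 0.257. Slc2a1 was at 0.02 (limma adjusted p = 0.914). Over all genes 47.4% were called, 25.6% higher and 21.8% lower, and the median was 0.04, against −0.50 for the 10 genes. The 5 of 10 called is near the background for either direction, but all 5 were lower. With equal sums 4 of the 10 were lower, Hk1 being lost (limma adjusted p = 0.208), while the share of called genes that were higher was 72.9%, against 54% as deposited. Without the Control pair of pre-B libraries none passed in limma (5 at an unadjusted p under 0.05), with 0.0648 the limma adjusted p of Ldha. Without the CKO pair Ldha and Pgk1 still passed, Ldhb was also called (−1.26), and Hk1, Hk2 and Pfkl were not. Hk1 missed the threshold when any 1 of the 4 pairs was left out. The CKO small pre-B library also held all 7 natural killer and innate markers above Control (114 FPKM in CKO and 13.2 FPKM in Control when summed). Between the pre-B populations, erythroid markers summed to 22.6 FPKM in CKO and 27.3 FPKM in Control small cells, against 206 FPKM in CKO and 378 FPKM in Control large cells. Mpo was at 4.57 FPKM in CKO and 6.48 FPKM in Control small cells, against 159 FPKM in CKO and 365 FPKM in Control large cells. The granulocyte markers Elane, Prtn3 and Cebpe were lower in small cells too. S100a8, S100a9, Ngp, Camp and Ltf were higher there in both genotypes. S100a8 was at 221 FPKM in CKO and 272 FPKM in Control small cells. In large cells S100a8 was at 84.1 FPKM in CKO and 104 FPKM in Control. Monocyte and macrophage markers summed to 119.6 FPKM in CKO and 47.4 FPKM in Control small cells, against 47.9 FPKM in CKO and 72.8 FPKM in Control large cells. The part of these markers in these differences was not tested.

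Of the 58 genes of the wider list that were tested, 11 were higher and 22 lower in small pre-B cells, and 16 higher and 14 lower in quiescent thymocytes. With equal sums 18 of 59 were higher and 16 lower in small pre-B cells, and 16 higher and 12 lower in quiescent thymocytes, so the excess of lower genes in small pre-B cells depends on the scale. Whether the lineages differ in these counts was not tested. In lower glycolysis, Pgk1 included, 3 of 10 genes were higher and 6 lower in small pre-B cells. Gapdh (−1.59), Pkm (−0.99) and Eno1 (−0.87) were among the 6. In quiescent thymocytes 3 of the 10 were higher and 3 lower, with Gapdh (−0.73) lower and Pkm at 0.10 (limma adjusted p = 0.439). Tpi1 fell in both lineages (−1.33 in pre-B cells and −1.20 in thymocytes), as did the transketolase gene Tkt (−1.22 in pre-B cells and −1.20 in thymocytes). Of 10 regulators, 5 were higher and 2 lower in small pre-B cells, and 5 higher and none lower in quiescent thymocytes. Txnip was higher by 1.62 in small pre-B cells and 1.33 in quiescent thymocytes, and Pdk2 by 1.60 in small pre-B cells and 1.01 in quiescent thymocytes. H6pd, an enzyme of the pentose phosphate pathway in the endoplasmic reticulum, was higher by 1.30 and Pfkp by 0.76 in quiescent thymocytes, where Pgls was lower (−1.25). Hk3 was lower in small pre-B cells (−2.10), as was the granule gene Mpo by the values above. The granulocyte markers S100a8, S100a9, Ngp, Camp and Ltf were higher in small pre-B cells. Mlxip, which encodes the glucose-sensing factor MondoA, was higher by 1.48 in small pre-B cells and by 0.76 in quiescent thymocytes. Myc was lower in small pre-B cells (−1.98, limma adjusted p = 0.00659), at 16.9 FPKM in CKO and 4.81 FPKM in Control small cells, against 45.4 FPKM in CKO and 33.6 FPKM in Control large cells. In quiescent thymocytes Myc was at −0.79 (limma adjusted p = 0.0762), and Hif1a was at 0.14 and 0.13 in thymocytes and pre-B cells, not past the threshold in either lineage.

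The difference of these state effects between lineages was tested as a contrast of the same fit, as the effect in thymocytes minus that in pre-B cells. It was above 0 for all 10 genes, on either scale, and passed for 4. With no filter on low values limma called 0 of the 10 and 0 of all 17121 genes, with 6 and 3857 at an unadjusted p under 0.05. Pgk1 alone went below 0 (−0.0033) when the CKO thymocyte pair was left out. Pdk1 had the largest difference, 2.05 (SE 0.19, limma adjusted p = 0.0169), from 1.66 in thymocytes and −0.40 in pre-B cells. Ldha was at 1.46 (SE 0.14, limma adjusted p = 0.0169), with a fall in both lineages that was smaller in thymocytes. Pfkl was at 0.96 (SE 0.16, limma adjusted p = 0.0377) and Hk1 at 0.71 (SE 0.14, limma adjusted p = 0.049), and each of these lay above 0 in thymocytes and below 0 in pre-B cells. Pgk1, lower in the less proliferating population of each lineage, had a difference of 0.19 (SE 0.18, limma adjusted p = 0.51). Of all genes 6.84% were called, 3.62% higher and 3.22% lower, with a median of 0.01, against 0.67 for the 10 genes. In the wider list 6 of 58 were higher and 1 lower, with Hk3 (2.08), Pkm (1.09), Pfkp (1.03) and Gpi1 (0.66) among those higher and Pgls (−1.43) the 1 that was lower. With equal sums 4 of 59 were higher and 3 lower. Gpi1 was then not called (limma adjusted p = 0.0705), and the pentose phosphate genes Rpe (−0.78) and Taldo1 (−0.70) were called lower beside Pgls. The pyruvate kinase gene Pklr passed too, at no more than 2.07 FPKM in any library and listed at 0 in 3 thymocyte libraries. Granulocyte markers summed to 454 FPKM in CKO and 602 FPKM in Control small pre-B cells. In large pre-B cells they summed to 499.8 FPKM in CKO and 1006 FPKM in Control. The part of these markers in the Hk3 difference was not tested. The call rests on few libraries. Without the CKO thymocyte pair Pdk1 and Ldha passed, and without any other pair none of the 10 did (5 to 7 at an unadjusted p under 0.05 in limma). With equal sums 3 of the 10 passed, the median of all genes was −0.14, and 25.8% of called genes were higher, against 53% as deposited. The pre-B libraries were labelled by size and the thymocyte libraries by cycling state, and Control quiescent thymocytes held 8.52 FPKM of proliferation markers against 203 FPKM in Control small pre-B cells.

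**Figure D4:**
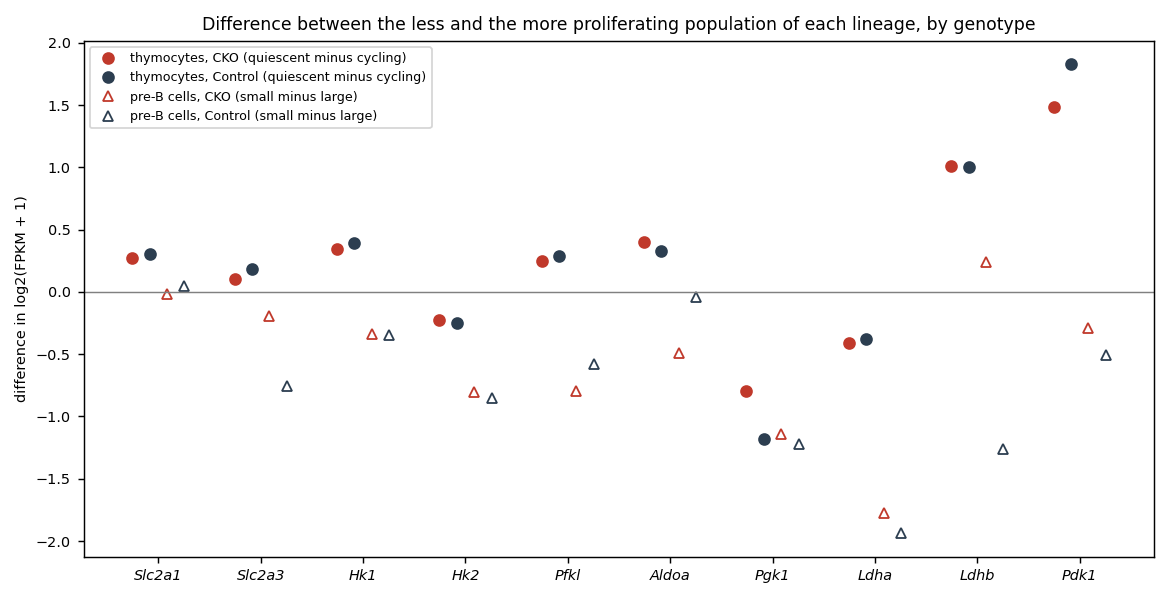
Difference in log2(FPKM + 1) between the quiescent and cycling thymocyte libraries (filled circles) and between the small and large pre-B libraries (open triangles), for CKO (red) and Control (dark). Pdk1 is at 1.48 in CKO and 1.83 in Control thymocytes and below 0 in pre-B cells, while Ldha and Pgk1 are below 0 in all 4 pairs.

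CKO and Control were compared within each population without a test, as 1 library stands on each side, and by their labels, which Dyrk1a itself does not check. Genes whose higher value reached 5 FPKM were considered, and a difference was counted from 2-fold upwards. Ldhb was the 1 gene of the 10 to reach that size, and it was lower in CKO in 3 populations. Its log2 ratio of FPKM + 1 was −1.68 in granulocytes, −1.64 in quiescent thymocytes and −1.65 in cycling thymocytes. In granulocytes 2.33% of genes considered differed at least 2-fold, 0.571% higher and 1.76% lower in CKO. In quiescent thymocytes 5.26% did, 3.66% higher and 1.6% lower, and in cycling thymocytes 0.954%, 0.374% higher and 0.58% lower. In large pre-B cells the ratio of Ldhb was −1.36 and in small pre-B cells 0.15, both from levels under 5 FPKM. As a share of lactate dehydrogenase transcript, Ldhb made up 35.3% in CKO and 53.4% in Control quiescent thymocytes and 16.7% in CKO and 30.4% in Control cycling thymocytes. Ldha was also lower in the CKO thymocytes, by less, with ratios of −0.58 in quiescent and −0.55 in cycling cells. In the granulocyte pair the thymocyte markers summed to 3.70 FPKM in CKO and 13.2 FPKM in Control and the monocyte and macrophage markers to 201 FPKM in CKO and 369 FPKM in Control (0 of 5 higher in CKO). The erythroid markers there summed to 308 FPKM in CKO and 81.4 FPKM in Control (5 of 5 higher). In quiescent thymocytes the thymocyte markers summed to 2176 FPKM in CKO and 2714 FPKM in Control (0 of 7 higher), and 7 of 7 proliferation markers were higher in CKO. The part of these markers in the ratios was not tested. All 5 ratios come from the same pair of pools, so their likeness does not show replication between animals.

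Aldoa was lower in CKO in the 4 lymphoid populations, most in small pre-B cells at −0.97, where it held 47.8 FPKM in CKO and 94.3 FPKM in Control. In granulocytes it was level, at −0.0018 as deposited and 0.0142 after median-ratio rescaling. Aldoa is abundant in granulocytes, and granulocyte markers were lower in CKO in both pre-B pairs, at 454 FPKM in CKO and 602 FPKM in Control small cells and 499.8 FPKM in CKO and 1006 FPKM in Control large cells. Their part in the Aldoa ratios was not tested. The other ratios were −0.36 in quiescent thymocytes, −0.44 in cycling thymocytes and −0.52 in large pre-B cells. Hk1 was higher in CKO in the 4 lymphoid populations (0.12 to 0.29) and lower in granulocytes (−0.31). Slc2a3 and Pdk1 reached their highest ratios in small pre-B cells, 0.77 and 0.60, the pair in which natural killer and plasmacytoid dendritic markers were higher in CKO (all 7 and all 5) and pre-B markers lower (7 of 7, 3052 FPKM in CKO and 4886 FPKM in Control), and the part of those cells in the ratios was not tested. None of the 10 was counted in pre-B cells. The background there was 6.3% in small cells, 4.52% higher and 1.78% lower in CKO, and 1.84% in large cells, 0.871% higher and 0.972% lower. Of the 10 genes considered in each thymocyte population, 9 had ratios below 0 and Hk1 was above, with medians of −0.24 in quiescent and −0.26 in cycling cells, against medians of −0.01 and 0.01 over all genes.

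**Figure D5:**
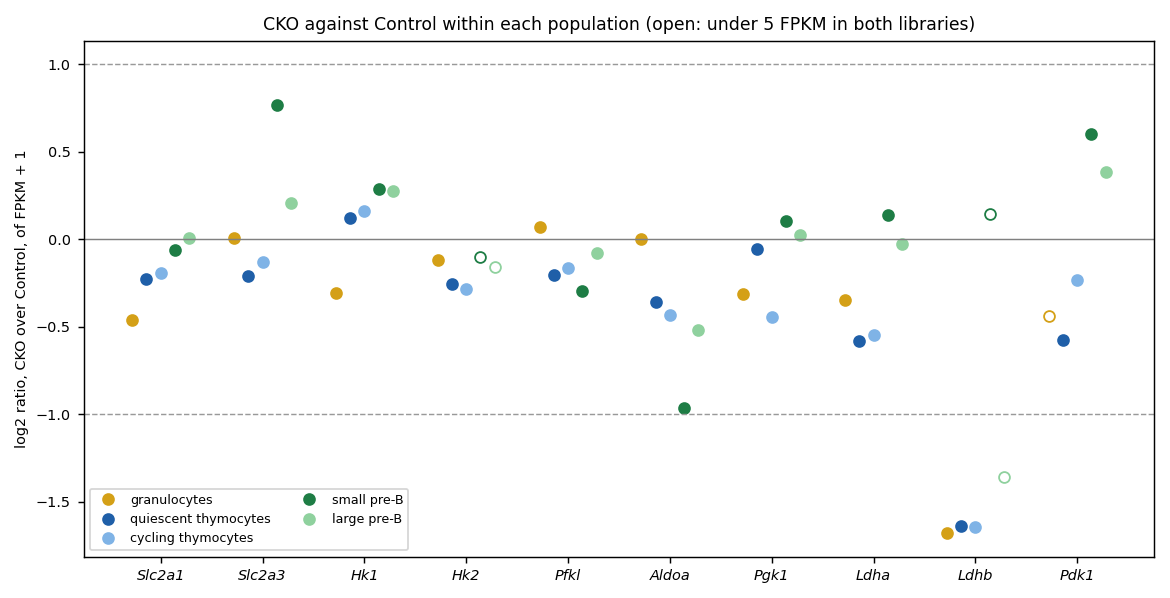
Log2 ratio of CKO over Control (FPKM + 1) for the 10 genes in each population, 1 point per pair of libraries, with open points for pairs under 5 FPKM in both and dashed lines at 2-fold. Ldhb is the 1 gene beyond 2-fold, at −1.64 to −1.68 in granulocytes and thymocytes, and Aldoa is below 0 in the 4 lymphoid populations.

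CKO and Control were also fitted across the 4 lymphoid populations, blocked by population (limma, 3 residual degrees of freedom). None of the 10 genes passed, and 4 had an unadjusted p under 0.05. The background in this fit was 0.036% called, 4 of 11126 genes, 0.027% higher and 0.00899% lower, with 1867 at an unadjusted p under 0.05. Ldhb had a difference of −1.13 (SE 0.31, limma adjusted p = 0.244, lower in 3 of 4 populations) and Aldoa of −0.57 (SE 0.11, limma adjusted p = 0.196, lower in 4 of 4). With granulocytes added Ldhb was at −1.24 (SE 0.28, limma adjusted p = 0.181) and Aldoa at −0.46 (SE 0.13, limma adjusted p = 0.219). Hk1 was at 0.21 (SE 0.07, limma adjusted p = 0.259), Ldha at −0.26 (SE 0.14, limma adjusted p = 0.387) and Pdk1 at 0.04 (SE 0.21, limma adjusted p = 0.923). Of the wider list, none of 58 passed and 11 had an unadjusted p under 0.05. These p-values measure how alike 1 pair of pools differed over populations, not the spread between animals.

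The genes most like each of the 10 in pattern were sought among 9638 symbols by Pearson's r of log2(FPKM + 1) over the 10 libraries, a description in which all libraries come from 2 pools and the granulocyte pair carries much of the range. Ldha was most like Gapdh, another glycolytic gene (r = 0.97), and Pgk1 most like Mdh2, the mitochondrial malate dehydrogenase gene (0.99). Aldoa was most like the NAD kinase gene Nadk (0.995) and Slc2a3 most like Arrb2 (0.998). Ldhb was most like Abcb9 (0.99), Pdk1 most like Patz1 (0.98), Slc2a1 most like Fam53c (0.99), Hk1 most like Vps26b (0.99), Hk2 most like Slc16a6 (0.99) and Pfkl most like Hdlbp (0.94). Among the 10 genes themselves, Slc2a1 and Ldhb had r = 0.98 over the 8 lymphoid libraries and Pgk1 and Ldha 0.76, whereas Pgk1 and Pdk1 had −0.31 and Aldoa had no r above 0.33 with any other. Over all 10 libraries Aldoa and Slc2a3 had r = 0.96, and over the 8 lymphoid libraries −0.19.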

How the data were processed

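RNA was sequenced from 5 sorted mouse cell populations in 2 genotypes, 10 libraries. Per the labels' protocols, total RNA was extracted with RNeasy kits and libraries followed standard Illumina methods. Per the submitters' processing notes the tools were TopHat2 2.0.8b and Cuffdiff 2.1.1 and the build mm10, with no roles or options stated. The annotation and strand setting are not given in the sources used here. The deposited values are read as FPKM made by the authors, inferred from those tools and the size of the values because the labels name no unit. Depth is unknown, and FPKM are relative within a library. Each file held 23179 rows, reduced to 22923 symbols by dropping exact repeats and keeping the highest mean row per symbol.

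The limma-trend method (limma version 3.58.1 under R 4.3.3) was applied to log2(FPKM + 1) after keeping genes that reached 1 FPKM in 2 fitted libraries, and was tested on simulated data. The series' design text gives 2 pooled mice of each genotype for all 5 populations, so p-values measure the spread between these libraries only. Alternatives were pseudocounts of 0.1 and 5, other filters, median-ratio rescaling, scaling to equal FPKM sums (added after seeing the data), other blocks and leaving out pairs. The 10 genes, the wider list of 82 genes (4 matched by older symbols) and the markers were chosen with earlier results of these data known. From the wider list the text names, per fit, up to 3 called genes in each direction with the largest change and a fixed set (Gapdh, Pkm, Eno1, Tpi1, Gpi1, Pfkp, Pdk2, Txnip, Hif1a, Myc); Mlxip in thymocytes, Tkt in pre-B cells, genes named for a role and Hk3, Mpo and Elane in pre-B cells were added after their values were seen. Positions are from GENCODE vM21 on mm10. Python 3.11.15, pandas 2.3.3, numpy 2.4.6 and matplotlib 3.10.9 were used.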

Additional observations from a re-analysis of the deposited data

Results flagged for a closer look

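The change from the more to the less proliferating population differed between thymocytes and pre-B cells, by a test of the difference itself, for 4 of the 10 genes: Pdk1 (2.05, limma adjusted p = 0.0169), Ldha (1.46, limma adjusted p = 0.0169), Pfkl (0.96, limma adjusted p = 0.0377) and Hk1 (0.71, limma adjusted p = 0.049), each as the log2 effect in thymocytes minus that in pre-B cells. Of all genes 6.84% were called in this contrast, 3.62% higher and 3.22% lower. With no filter on low values limma called none of the 10, with 6 at an unadjusted p under 0.05. With equal sums Hk1 was not called (limma adjusted p = 0.0765). These calls rest on few libraries, as described above.

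For 3 genes the CKO library lay on one side of Control in both thymocyte populations and on the other side in both pre-B populations. The mean log2 ratio of CKO over Control in thymocytes minus that in pre-B cells was −0.90 for Pdk1, −0.66 for Slc2a3 and −0.32 for Pgk1. In thymocytes Pdk1 was at 37.5 FPKM in CKO and 56.5 FPKM in Control quiescent cells and at 12.8 FPKM in CKO and 15.2 FPKM in Control cycling cells. In pre-B cells Pdk1 was at 8.34 FPKM in CKO and 5.15 FPKM in Control small cells and at 10.4 FPKM in CKO and 7.72 FPKM in Control large cells. Pgk1 was nearly level in large pre-B cells, at 148 FPKM in CKO and 146 FPKM in Control. These differences were not tested. The share of all genes with such a pattern of signs was not computed, so the count of 3 has no background.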

How the results depend on the processing

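Directions and calls were recomputed under each alternative, and the cause of a change was not tested. For quiescent against cycling thymocytes 4 of the 10 genes were called, 2 with genotype left out of the block and 0 to 3 without 1 pair of libraries (all genes: 4997, and 4 to 3795). For small against large pre-B cells 5 were called, and 0 to 4 without a pair (all genes: 5277, and 3 to 4972), with Slc2a1 between −0.0177 and 0.0496 and Ldhb between −1.26 and 0.24. For the difference between lineages 4 were called, 0 with no filter and 0 to 2 without a pair (all genes: 761, 0 with no filter, 361 with a pseudocount of 0.1 and 0 to 359 without a pair), with Pgk1 between −0.0033 and 0.39. A fit without a pair leaves 1 pair in its lineage, which is assumed to vary like the other lineage. For CKO minus Control over 4 populations the count over all genes was 4, and 10 with a pseudocount of 0.1, 2 with a pseudocount of 5, 0 with no filter, 2 without the population block and 0 to 1 without a pair. There Pdk1 was at −0.0115 with a pseudocount of 5, −0.0524 with granulocytes and −0.14 to 0.25 without a pair, Pgk1 at −0.16 to 0.0228 and Slc2a3 at −0.046 to 0.28. For granulocytes Ldhb ranged from −1.58 to 0.60 and Pfkl from −0.0822 to 0.33 without a pair, and with equal sums Slc2a1 was at −0.15 and Pfkl at −1.0006. For thymocytes against pre-B cells Aldoa ranged from −0.24 to 0.13, Pgk1 from −0.71 to 0.47 and Ldha from −0.35 to 1.51. With a minimum of 1 FPKM, 1 gene, Ldhb, was 2-fold lower in CKO large pre-B cells, where 0 were counted at 5 FPKM. Depth is unknown, so no counting error can be given, and low values such as Ldhb in pre-B cells are the least certain.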

Other observations

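Few genes of the wider list differed at least 2-fold between CKO and Control outside the 10 genes. In quiescent thymocytes 1 of 45 genes considered was lower in CKO, against 1.6% of all genes, and none was higher. It was Pdk2, a pyruvate dehydrogenase kinase gene, at 1.52 FPKM in CKO and 5.83 FPKM in Control. In small pre-B cells 3 of 44 genes considered were higher in CKO, against 4.52% of all genes: the transporter gene Slc2a6 (5.31 FPKM in CKO and 0.810 FPKM in Control), the mitochondrial PEP carboxykinase gene Pck2 (27.7 FPKM in CKO and 12.4 FPKM in Control) and Myc (16.9 FPKM in CKO and 4.81 FPKM in Control). Slc2a6 was at 106 FPKM in CKO and 117 FPKM in Control granulocytes, and the 5 monocyte and macrophage markers summed to 119.6 FPKM in CKO and 47.4 FPKM in Control small pre-B cells, with 2 of the 5 higher in CKO. Mpeg1 made up 77.6 FPKM of that sum in CKO and 4.27 FPKM in Control. In the same pair all 7 natural killer and innate, all 5 plasmacytoid dendritic and all 7 proliferation markers were higher in CKO, the last summing to 442 FPKM in CKO and 203 FPKM in Control. The part of these markers in the 3 values was not tested. These pairs have 1 library on each side and were not tested.

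The 10 genes together made up 0.290% of the summed FPKM in CKO and 0.4145% in Control granulocytes, 0.126% in CKO and 0.203% in Control quiescent thymocytes, and 0.1245% in CKO and 0.181% in Control cycling thymocytes. In pre-B cells they made up 0.0635% in CKO and 0.0675% in Control small cells and 0.121% in CKO and 0.133% in Control large cells. Abundant genes weigh most in these sums. In quiescent thymocytes the 10 genes summed to 499 FPKM in CKO and 787 FPKM in Control. Within that sum, Ldhb held 77.0 FPKM in CKO and 243 FPKM in Control, and Ldha 141 FPKM in CKO and 212 FPKM in Control. The CKO granulocyte sum includes S100a8 and Ngp, which are listed at 0 in Control granulocytes, so that pair of shares is not compared.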
